A study of Drosophila melanogaster with 24 samples.

Results

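The proteasome subunit genes are the 47 genes, of 13700 annotated genes listed in the data, whose symbol begins with Prosalpha or Prosbeta, or with Rpn or Rpt and a digit. They fall into 14 constitutive subunits of the core particle, 18 constitutive subunits of the regulatory particle, and 15 duplicate copies, which carry T or R after the subunit number. They were chosen by name, without use of any measured value.

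The proteasome is the protease that degrades proteins marked with ubiquitin in the cytosol and nucleus. Its core particle is a barrel of stacked rings, in which outer rings of alpha subunits form the gate and inner rings of beta subunits carry the proteolytic sites. The regulatory particle caps the barrel, where its base holds a ring of ATPases that unfold the substrate and its lid removes the ubiquitin chain. In neurons this machinery clears misfolded proteins, and in flies several subunits have duplicate copies that are used in the male germ line.

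Transcripts were measured by RNA-Seq in the heads of male flies aged 3, 10, 20, or 30 days after eclosion, in 24 libraries that form 8 groups of 3. AD flies carried UAS-Aβ42 in a w1118 background and were crossed to elav-GAL4 c155, a driver active in neurons. WT flies were w1118 crossed to the same driver, which both genotypes therefore share. The labels call the transgene of the AD flies hAPP, while the study's methods name the Aβ peptide, and each library was made from many pooled heads. The values are the expected counts and the fragments scaled by gene length and library size (FPKM) that the authors estimated for each gene with RSEM. Normalized counts below are expected counts scaled by the TMM method to a common library size and are used to compare libraries, while FPKM is used to compare genes. Since heads are bulk tissue, fewer cells of a type and less RNA per cell cannot be told apart.

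The libraries held between 12884945 and 26731357 expected counts (median 14887458). The length listed for 1 gene of the authors' own numbering takes 2 values, which split the libraries into 2 sets, of which the first holds replicate 1 of days 3, 10, and 20 in both genotypes (6 libraries) and the second the other 18, so that day 30 is present only in the second. No label names these sets, the 6 libraries of the first were also the deepest (at least 21168175 expected counts, against at most 16237611 in the second), and processing, sequencing, and library preparation cannot be told apart. In 2 libraries, WT day 3 replicate 1 and AD day 10 replicate 1, all 10 listed testis markers had reads, with summed normalized counts of 3868 and 388 against 6.67 to 90.4 in the other 22. The library labelled AD day 30 replicate 3 had 1530 normalized counts of *w*, the gene that transgenes commonly carry as an eye colour marker, which was inside the range of 1094 to 1832 of the WT libraries and below the 3064 to 4373 of the other 11 AD libraries. Counts of calls with age are also given without these 3 libraries, and the calls that are lost then are named. A second gene used to check the labels, the yolk protein gene *Yp1*, had 654 normalized counts in WT day 3 replicate 2. The other day 3 libraries had 8.89 to 42.7, and no library of a later day had more than 269. WT day 3 replicate 2 is not among these 3 libraries, and the cause of its value was not tested. With respect to the tissue, markers of photoreceptors and neurons were abundant in every library, with summed normalized counts of at least 533630 and 26773.

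The constitutive subunits other than *Prosalpha1* were well expressed in heads. Over the 24 libraries the median FPKM of the core subunits, *Prosalpha1* aside, ran from 53.3 for *Prosalpha6* to 124 for *Prosalpha2*, both subunits of the alpha ring. The catalytic subunits *Prosbeta1*, *Prosbeta2*, and *Prosbeta5*, which carry the caspase-like, trypsin-like, and chymotrypsin-like activities, had median FPKM values of 109.7, 92.8, and 93.9. In the regulatory particle the order ran from 79.8 FPKM for the ATPase *Rpt1* to 30.5 FPKM for *Rpn2*, a large scaffold protein of the base. *Rpn13* and *Rpn10*, the ubiquitin receptors of the base, had 73.0 and 70.4 FPKM, and *Rpn11*, the deubiquitinase of the lid, had 44.8. The single libraries of a subunit overlapped those of its neighbours in this order, and the highest library of a subunit was between 1.34 and 2.06 times its lowest. Per length, the regulatory particle was thus listed lower than the core particle in each library, with a ratio of the median FPKM values between 0.565 and 0.734.

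The class medians by library and age are plotted for both particles. The median FPKM of the core particle at days 3, 10, 20, and 30 was 80.6 ± 7.72, 80.1 ± 2.08, 91.1 ± 2.58, and 103.5 ± 5.52 in WT flies (SD, n = 3). The AD values at these ages were 80.1 ± 6.06, 85.9 ± 3.96, 97.3 ± 3.14, and 106.3 ± 7.83. In both genotypes every library of day 30 lay above every library of day 3. The median FPKM of the regulatory particle was 54.5 ± 6.07 at day 3 and 63.2 ± 1.13 at day 30 in WT flies, and 53.5 ± 8.40 and 65.3 ± 1.5 in AD flies. Here too no library of day 30 was below a library of day 3, although the first replicate of day 3 (61.4 in WT and 62.6 in AD) came close to the lowest of day 30 (61.9 and 63.9). These are levels on the FPKM scale, on which the median of all tested genes was also higher at day 30 by 0.12 (log2) in AD flies and by 0.07 in WT flies.

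**Figure D1:**
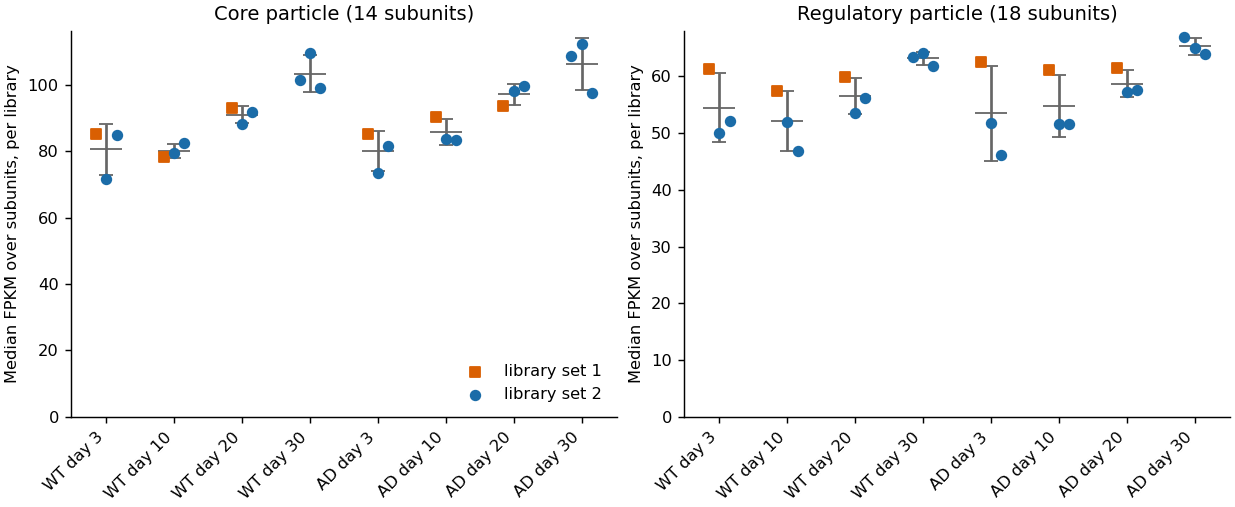
Median FPKM over the 14 core subunits (left) and the 18 regulatory subunits (right) in each of the 24 libraries, by group. Squares are libraries of the first set, circles those of the second, and grey marks are the group mean ± SD (n = 3). The day 30 libraries lie above the day 3 libraries in both genotypes, and in the regulatory particle the squares stand above the circles of their group.

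The library of the first set was also compared with the other libraries of its group in normalized counts, with 1 such library a group, which is a description without a test. In AD flies at day 3, 16 of the 18 regulatory subunits were highest in replicate 1, with a median log2 difference of 0.26 from the mean of replicates 2 and 3. In WT flies at day 3 this held for 11 of 18, with a median difference of 0.12, and in the other groups it held for 8 and 10 of 18 in WT flies at days 10 and 20 and for 12 and 3 of 18 in AD flies, with medians of 0.02, 0.06, 0.14, and -0.10. Of all tested genes 35.0% to 42.8% were highest in the library of the first set and 34.5% to 43.0% lowest, over the 6 groups. Of the 13 core subunits other than *Prosalpha1*, 1, 11, and 8 were lowest in replicate 1 in WT flies and 2, 8, and 10 in AD flies at days 3, 10, and 20. Since all day 30 libraries belong to the second set, comparisons with day 30 are also given within that set.

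The first question was whether the transgene changed subunit levels at a given age. AD flies did not differ from WT flies in any subunit at the threshold of a false discovery rate (FDR) under 0.05. Of the 47 members, 37 passed the filter on low counts and were tested, comprising the 32 constitutive subunits and 5 copies. By edgeR's quasi-likelihood test 0 of the 37 were called at each of the 4 ages, and 0 had an unadjusted p under 0.05 on any of these days. DESeq2 gave the same counts of 0 and 0. Few genes at all were called between the genotypes, namely 0.0286%, 0.21%, 0.153%, and 0.0286% of the 10479 tested genes in order of age, so that a count of 0 among 37 is near the background.

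The median log2 fold change of AD against WT flies in the core particle was 0.00, 0.05, 0.10, and 0.04 in order of age. The medians of the regulatory particle were -0.02, 0.04, 0.06, and 0.05, and over all tested genes it was between -0.01 and 0.00. The number of constitutive subunits with a value above 0 was 13, 26, 27, and 25 of 32, against 50.2%, 48.1%, 50.1%, and 50.1% of all tested genes. The estimates of the 31 constitutive subunits other than *Prosalpha1* lay between -0.16 and 0.29, with standard errors between 0.08 and 0.22. The 95% intervals (estimate ± 1.96 SE) of these 31 subunits stayed within a log2 fold change of 1 in either direction at every age. The widest reach was 0.67 at day 20, a 1.60-fold difference, and differences smaller than these bounds were not resolved. The factor 1.96 is that of a normal distribution, so the intervals are narrower than those of the test itself. That of *Prosalpha6* at day 20, 0.02 to 0.56, left out 0, although its unadjusted p by edgeR was 0.0509.

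The subunit nearest to a difference was *Prosalpha6* of the alpha ring at day 20. Its normalized count was 738, 863, and 794 in WT replicates 1, 2, and 3 and 780.4, 1009.7, and 1132 in AD replicates. AD replicate 1 lay between the WT values, while the other AD libraries were higher than all of WT. The log2 fold change was 0.29 ± 0.14 (SE) with an unadjusted p of 0.0509 and an FDR of 1.0 by edgeR. At day 30 the same gene read 846, 907, and 932 in WT and 997, 999, and 1059 in AD flies, with every AD library above every WT library, and the log2 fold change was 0.19 ± 0.14 (FDR = 0.853 by edgeR).

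Among the regulatory subunits the lowest unadjusted p was that of the ATPase *Rpt5* at day 30. Its normalized count was 1029, 867, and 1095 in WT and 1091, 1129, and 1135 in AD replicates. WT replicate 3 overlapped the AD libraries and WT replicate 2 was well below the rest. The log2 fold change was 0.17 ± 0.09 (edgeR FDR = 0.733), and at day 20 it was 0.13 ± 0.09 (FDR = 1.0). At day 3 the subunits with the lowest p in each class were *Prosalpha3* and the ubiquitin receptor *Rpn10*, each at -0.10 on the log2 scale, and at day 10 they were the ATPase *Rpt4* at 0.13 and *Prosalpha1* at -2.06 ± 1.77, whose reads were divided as described below, all at an edgeR FDR of 1.0. No subunit had AD and WT libraries apart on all 4 days.

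**Figure D2:**
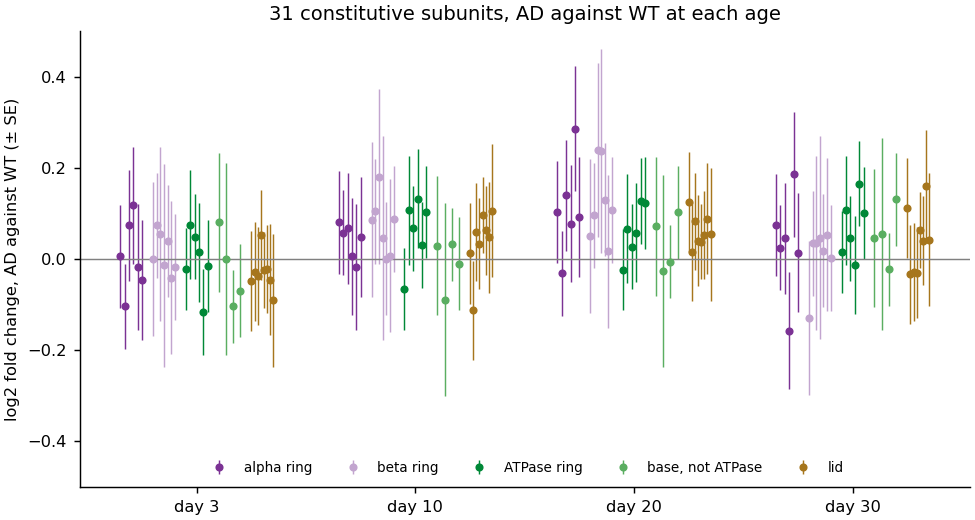
Log2 fold change of AD against WT flies (± SE, edgeR, 3 libraries a group) for 31 constitutive subunits at days 3, 10, 20, and 30, coloured by their place in the complex. *Prosalpha1* is left out because its reads were shared with a neighbouring gene. All estimates lie between -0.16 and 0.29, and none was called.

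The second question was how subunit levels moved with age. Most constitutive subunits had modestly higher estimates at day 30 than at day 3 in both genotypes. In WT flies 29 of 32 had a log2 fold change above 0, with a median of 0.26 in the core particle and 0.14 in the regulatory particle, against -0.01 over all tested genes, of which 48.9% were above 0. In AD flies 29 of 32 were again above 0, with medians of 0.30 and 0.20 against 0.01 over all tested genes, of which 50.7% were above 0. Both comparisons have separate libraries, since each genotype has its own day 3.

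In WT flies 3 of the 37 tested members were called higher at day 30 (8.11%, against 4.52% of all tested genes) and 0 lower (against 6.63%). In AD flies 7 of 37 were called higher (18.9%, against 10.2%) and 0 lower (against 11.7%). At an unadjusted p under 0.05 the counts were 9 of 37 in WT and 12 of 37 in AD flies, all higher at day 30. The share of all tested genes at that limit was not counted in any comparison, so such counts have no background here. The normalized counts of the day 30 libraries all lay above those of day 3 in 16 of the 32 constitutive subunits in WT flies, against 17.1% of all tested genes, and in 17 of 32 in AD flies, against 19.8%. In 0 of the 32 did all day 30 libraries lie below day 3, in either genotype. The share of all tested genes in that direction was not recorded, so this 0 has no background beside it. None of the members passed a log2 fold change of 1 beside the FDR, a limit that 4.49% of tested genes passed in WT and 7.68% in AD flies.

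*Prosalpha3*, a subunit of the alpha ring, rose in both genotypes. The normalized count of *Prosalpha3* in WT flies was 1161, 1136, and 1278 in replicates 1, 2, and 3 at day 3 and 1555, 1681, and 1676 at day 30. The AD libraries read 1206, 998, and 1122 when young and 1477, 1833, and 1688 at day 30. The groups did not overlap in either genotype. The log2 fold change was 0.46 ± 0.09 in WT (FDR = 0.0037) and 0.59 ± 0.09 in AD flies (FDR = 0.00022 by edgeR). It was called in each of the 17 alternative fits in both genotypes (limma on the FPKM scale included), with estimates from 0.44 to 0.53 in WT and from 0.49 to 0.70 in AD flies. The expected counts of *Prosalpha3* were not whole numbers in 16 of 24 libraries, so part of its reads was shared with other transcripts by RSEM.

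Of the other alpha subunits, *Prosalpha2* and *Prosalpha6* were called in AD flies. The normalized count of *Prosalpha2* in AD flies was 1464, 1395, and 1604 in replicates 1, 2, and 3 at day 3 and 1918, 1996, and 1857 at day 30. Each day 30 library was above each day 3 library, and the log2 fold change was 0.37 ± 0.11 (edgeR FDR = 0.0236). *Prosalpha6* read 803, 654, and 813 at day 3 and 997, 999, and 1059 at day 30, again without overlap (0.43 ± 0.14, edgeR FDR = 0.0318). Both calls depended on single libraries. *Prosalpha2* was not called without AD day 3 replicate 1 or 2 or without AD day 30 replicate 1 or 2, where its FDR by edgeR was 0.079 to 0.133, and *Prosalpha6* not without AD day 3 replicate 1 or 2 or any one of the day 30 libraries, where it was 0.055 to 0.186. Without the 3 doubted libraries *Prosalpha6* was not called either (0.38, FDR = 0.109 by edgeR). In WT flies the values were 0.30 ± 0.11 for *Prosalpha2* and 0.22 ± 0.14 for *Prosalpha6*, and neither was called (FDR = 0.0886 and 0.314 by edgeR). Exons of *Prosalpha2* share 24 bases with *Aos1* on the opposite strand.

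*Prosalpha5*, another subunit of the alpha ring, had the lowest estimate of the core particle in AD flies. Its AD libraries read 1033, 1059, and 1132 normalized counts when young and 963, 1087, and 1102 at day 30, with overlapping groups and a log2 fold change of -0.03 ± 0.13. In WT flies *Prosalpha5* read 981, 854, and 1136 at day 3 and 1124, 1233, and 1158 at day 30, also with overlap, and the log2 fold change was 0.24 ± 0.13 (edgeR FDR = 0.24). The difference between the genotypes was -0.27 ± 0.18, the nearest to the threshold in the core particle in the test of genotype by age (FDR = 0.9999 by edgeR).

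In the beta ring 0 of 7 subunits were called in either genotype, although all 7 were above 0 in both, with medians of 0.28 in WT and 0.28 in AD flies. The range was 0.19 to 0.45 in WT and 0.21 to 0.34 in AD flies. The catalytic subunit *Prosbeta1* read 1044, 1057, and 1391 at day 3 and 1517, 1626, and 1615 at day 30 in WT flies (0.45 ± 0.17, edgeR FDR = 0.0948). *Prosbeta5*, the chymotrypsin-like subunit, read 1465, 1412, and 1703 at day 3 and 1732, 1823, and 1813 at day 30 in WT (0.23 ± 0.12) and 1578, 1437, and 1695 at day 3 and 1742, 1869, and 1828 at day 30 in AD flies (0.21 ± 0.12). For both, the groups were apart in WT flies, and for *Prosbeta5* also in AD flies.

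In the ATPase ring of the base, *Rpt1* rose in both genotypes. The normalized count of *Rpt1* in WT flies was 1665, 1742, and 1669.9 in replicates 1, 2, and 3 at day 3 and 2147, 2229.9, and 2443 at day 30. The AD libraries read 1829, 1630.1, and 1542 at day 3 and 2451, 2339, and 2104 at day 30. All libraries of day 30 were above those of day 3, and the log2 fold change was 0.43 ± 0.09 in WT (FDR = 0.00469) and 0.46 ± 0.09 in AD flies (FDR = 0.00123 by edgeR). *Rpt5* was called in AD flies, with 849, 797, and 819 at day 3 and 1091, 1129, and 1135 at day 30 (0.44 ± 0.09, edgeR FDR = 0.00237). In WT flies *Rpt5* read 940.2, 897, and 835 at day 3 and 1029, 867, and 1095 at day 30, with WT day 30 replicate 2 inside the range of day 3 (0.16 ± 0.09). The difference of the changes was 0.28 ± 0.13, with an unadjusted p of 0.047 and an FDR of 0.9999 by edgeR, so that no difference between the genotypes was shown for *Rpt5*. The other ATPases, *Rpt2*, *Rpt3*, *Rpt4*, and *Rpt6*, were between 0.09 and 0.21 in both genotypes and were not called.

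Of the other base subunits, the ubiquitin receptor *Rpn13* rose in AD flies, from 1505, 1471, and 1512 at day 3 to 2169, 2045, and 1895 at day 30. The groups were far apart, and the log2 fold change was 0.44 ± 0.10 (edgeR FDR = 0.00442). In WT flies *Rpn13* read 1509, 1445, and 1758 at day 3 and 1898, 1838, and 1841 at day 30 (0.24 ± 0.10, edgeR FDR = 0.131). The scaffold proteins *Rpn1* and *Rpn2* were at 0.02 and 0.14 in WT and at -0.01 and 0.19 in AD flies. *Rpn2* varied widely among replicates, with 2111, 1563, and 1177 in the 3 AD libraries of day 3.

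In the lid, *Rpn8*, the partner of the deubiquitinase *Rpn11*, rose in both genotypes. The normalized count of *Rpn8* in WT flies was 1449, 1473, and 1449 in replicates 1, 2, and 3 at day 3 and 1728, 1742, and 1776 at day 30. The WT groups were tight and apart (0.26 ± 0.08, edgeR FDR = 0.0478). In AD flies *Rpn8* read 1613, 1360.1, and 1327 at day 3 and 1859, 1826, and 1801 at day 30 (0.35 ± 0.08, edgeR FDR = 0.00544). The WT call is at the limit and was lost without any one of the 6 libraries, with an FDR from 0.062 to 0.129 by edgeR, and without the 3 doubted libraries (FDR = 0.143 by edgeR). *Rpn11* itself was at 0.06 ± 0.12 in WT and 0.26 ± 0.12 in AD flies and was not called. *Rpn7* was the one lid subunit below 0 in both genotypes, at -0.09 in WT and -0.17 in AD flies (edgeR FDR = 0.621 and 0.231).

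**Figure D3:**
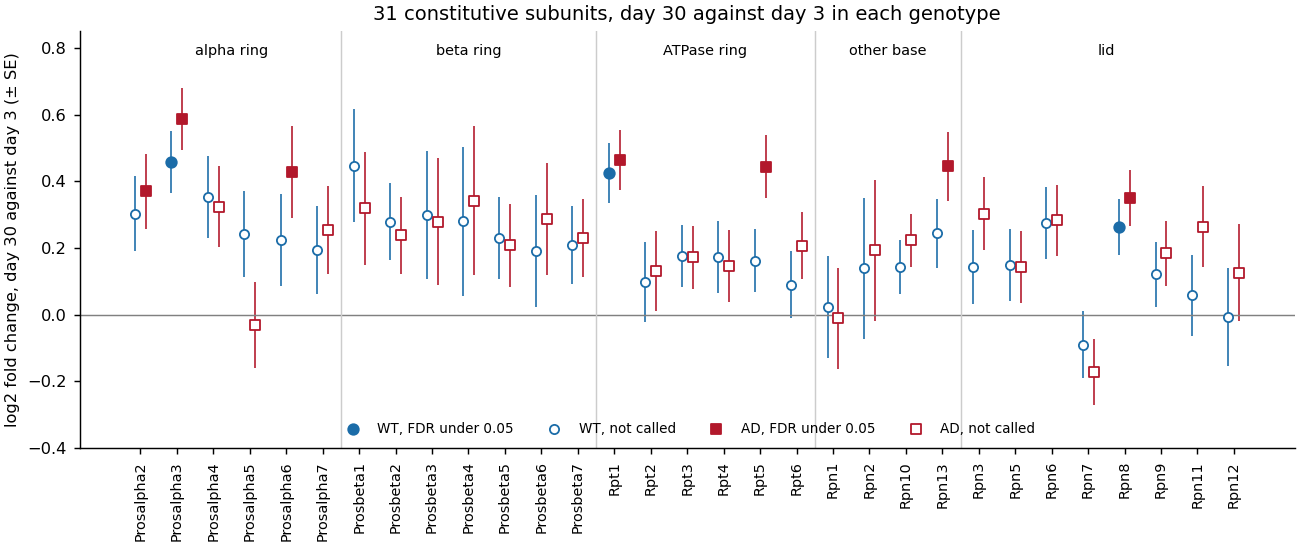
Log2 fold change of day 30 against day 3 (± SE, edgeR, 3 libraries a group) for 31 constitutive subunits in WT flies (circles) and AD flies (squares), ordered by place in the complex. Filled symbols were called at an FDR under 0.05, which were *Prosalpha3*, *Rpt1*, and *Rpn8* in both genotypes and *Prosalpha2*, *Prosalpha6*, *Rpt5*, and *Rpn13* in AD flies.

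The counts of calls at day 30 moved with the fit. Within the second set, with 2 libraries at day 3, 3 members were called in WT and 12 in AD flies, all higher at day 30, against 5.63% and 12.6% of all genes tested there. In AD flies the call of *Prosalpha2* was lost within that set. *Rpn3*, *Rpn9*, *Rpn10*, *Rpn11*, *Rpt2*, and *Rpt6* were called there in AD flies but not in the fit of all 24 libraries. With the set as a covariate 6 and 16 were called, against 8.62% and 17.2%. Without the 3 doubted libraries, an alternative chosen after seeing the data, 2 were called in WT and 6 in AD flies, against 2.49% and 8.05%, and the medians were 0.24 and 0.19 in the core and regulatory particle of WT flies and 0.29 and 0.20 in AD flies. Without WT day 3 replicate 3 the count in WT flies was 7. A fit with the compared groups alone gave 2 calls in each genotype. The share of all tested genes called is not given for this fit or for that without WT day 3 replicate 3. Both counts are therefore without a background here. On the log2(FPKM + 1) scale limma called 7 in WT and 18 in AD flies, against 8.08% and 16.0% of all genes, where the median of all genes was itself shifted by 0.07 and 0.12, and the core medians were 0.34 and 0.43. On that scale 67.6% of all calls in WT and 68.1% in AD flies were higher at day 30, against 40.5% and 46.7% in the edgeR fit.

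The excess of the age change in AD over WT flies was not called for any of the 37 members, by edgeR or DESeq2, and 1 (*Rpt5*) had an unadjusted p under 0.05 in each. Over all tested genes 0 were called by edgeR (0.0%). The median of the difference was 0.04 in the core particle and 0.06 in the regulatory particle. An FDR under 0.05 in AD and not in WT flies is therefore not shown to be a difference between them.

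At day 10, 0 of 37 members were called by edgeR against day 3 in either genotype, against 0.191% of tested genes higher and 0.887% lower in WT flies and 0.678% and 2.21% in AD flies. At an unadjusted p under 0.05 there were 3 members in WT and 2 in AD flies, again without a share of all genes, and DESeq2 called 0 and 1. The core subunit nearest to a call at that age was *Prosalpha4* in WT flies (0.21 ± 0.12, edgeR FDR = 0.438) and *Prosalpha3* in AD flies (0.24 ± 0.09, edgeR FDR = 0.166). In WT flies at day 20, *Prosalpha3* was the 1 member called higher, against 2.35% of tested genes, and 0 were called lower, against 4.05%. It read 1546, 1439, and 1551 at day 20, above all WT libraries of day 3 (0.34 ± 0.09, edgeR FDR = 0.0345). The call was lost without WT day 3 replicate 1 or 2, without WT day 20 replicate 1 or 3, and without the 3 doubted libraries, where the FDR by edgeR was 0.129. Without WT day 3 replicate 3 the count in either direction was 4, with *Prosalpha3* and *Prosalpha4* higher and *Rpn7* and the copy *Rpt6R* lower. *Rpt6R* had 73.0 normalized counts in WT day 3 replicate 1, one of the libraries with testis transcripts. The share of all tested genes called in that fit is not given here. With the replicate number as a block, *Rpn7* was called lower beside *Prosalpha3* (-0.31, FDR = 0.0486 by edgeR). The numbers met the rule used for pairing at this age, but replicate 1 was of the first set on both days. Pairing by number and the set cannot be told apart there. The core median was 0.12 and the regulatory median -0.01.

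In AD flies at day 20, 2 members were called higher, against 7.41% of tested genes, and 1 lower, against 7.96%. *Prosalpha3* read 1466, 1425, and 1548 at day 20 (0.42 ± 0.09, edgeR FDR = 0.00573), and *Rpt5* read 1049, 1007, and 1124 (0.37 ± 0.09, edgeR FDR = 0.0127). Neither overlapped its day 3 libraries given above, which are shared with the comparison at day 30. The core median was 0.27, the regulatory median 0.06. The count fell from 3 to 1 without AD day 20 replicate 3, where *Rpt5* was not called (FDR = 0.063 by edgeR). *Rpt5* was also lost without AD day 3 replicate 2, within the second set, and with only the groups compared. In all it was lost in 4 of 17 alternative fits (edgeR FDR up to 0.1755), and *Prosalpha3* in 1 of 17. Without the 3 doubted libraries all 3 members were still called. No member passed a log2 fold change of 1 at day 20, against 2.33% of tested genes in WT and 5.44% in AD flies.

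*Rpn7*, a lid subunit, was the member called lower. Its normalized count in AD flies was 1199, 1016, and 948 when 3 days old, 845, 874, and 816 when 10 days old, 803, 859, and 863 when 20 days old, and 842, 930.4, and 1035 when 30 days old. The WT values in the same order were 1133, 973, and 942, then 809, 807, and 860.1, then 849.9, 808, and 797, and lastly 976, 920.1, and 971. In both genotypes all libraries of days 10 and 20 were below all libraries of day 3, and the highest library of day 3 was replicate 1, of the first set. The log2 fold change at day 20 was -0.33 ± 0.10 in AD (edgeR FDR = 0.0317) and -0.31 ± 0.10 in WT flies (edgeR FDR = 0.0642), and the day 10 values were -0.32 ± 0.10 and -0.30 ± 0.10. The call in AD flies was lost without AD day 3 replicate 1 (FDR = 0.145 by edgeR), without any one of the day 20 libraries, and within the second set (-0.21, FDR = 0.188 by edgeR). Exons of *Rpn7* share 88 bases with *CG34376* on the opposite strand, and the protocol does not name a strand-specific kit, so reads of the pair cannot be told apart there.

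*Prosalpha1* could not be measured on its own. The gene lies on chromosome 2R at 7827303 to 7828678 of the release 6 genome, minus strand, and *CG30382*, now named *Prosalpha1R*, lies at 7830413 to 7831771 on the same strand. The share of the pair's expected counts given to *Prosalpha1* was 0% in 6 libraries and 100% in 1, and between 11.2% and 97.8% in the others. The sum of the pair varied far less, with 1017 ± 66.1, 1134 ± 238, 1192 ± 110.0, and 1299 ± 86.8 normalized counts in WT flies in order of age (SD, n = 3). The AD sums were 1054 ± 134, 1196 ± 61.2, 1380.4 ± 221, and 1398 ± 55.4. Tested as 1 gene, a choice made after seeing the data, the pair rose in AD flies between days 3 and 30 (0.41 ± 0.14, edgeR FDR = 0.0432) and had a log2 fold change of 0.35 ± 0.14 in WT flies (edgeR FDR = 0.11). AD and WT flies differed by 0.05, 0.08, 0.21, and 0.11 at days 3, 10, 20, and 30, none of them called.

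**Figure D4:**
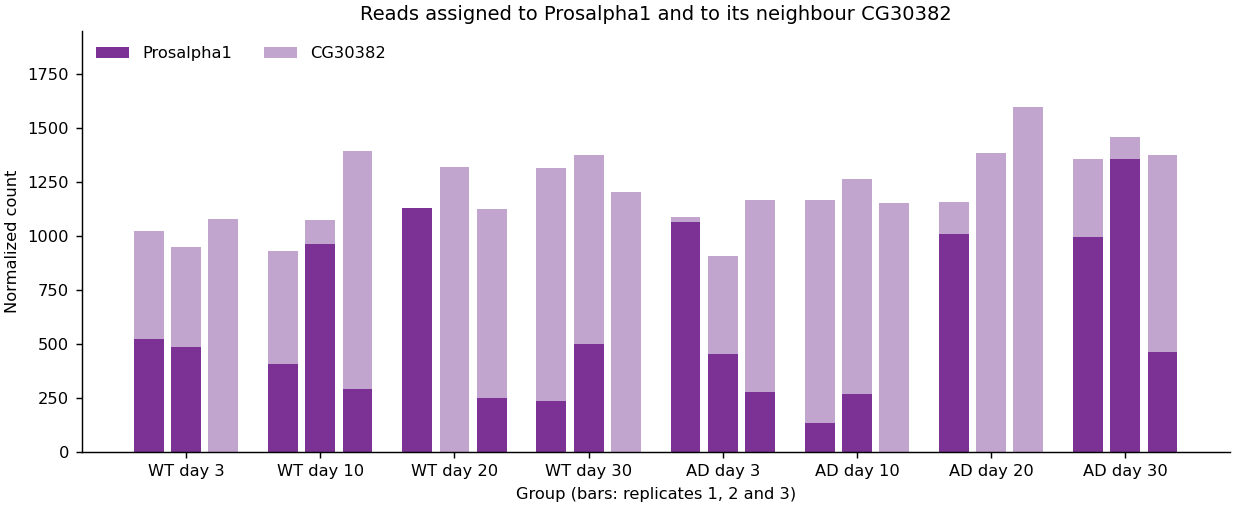
Normalized counts assigned to *Prosalpha1* (dark) and to its neighbour *CG30382* (light) in each library, with 3 bars for the replicates of each group. The share of the dark part runs from 0% to 100% between libraries, while the sum lies between 907 and 1599.

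The 15 duplicate copies were rare in heads, and 13 of them were highest in WT day 3 replicate 1, one of the libraries with testis transcripts. All 15 had reads in WT day 3 replicate 1 and in AD day 10 replicate 1, while 5 to 12 were listed in each of the other 22 libraries. Both are of the deeper first set, whose other libraries listed 8 to 12 of the copies. In all, these 2 libraries listed 13045 and 12555 genes, against 10830 to 12146 in the other 22. Over all 15 copies the summed normalized counts were 836 in WT day 3 replicate 1 and 224 in AD day 10 replicate 1, against 73.8 to 187 elsewhere. Leaving aside *Rpt4R* and *Rpn13R*, the remaining 13 copies summed to 715 normalized counts in WT day 3 replicate 1 and 142 in AD day 10 replicate 1, against 6.43 to 40.2 elsewhere. The copies set aside are those that were not highest in WT day 3 replicate 1, so the second sum is tilted toward that library. The testis markers followed the same 2 libraries, as given above, with *betaTub85D*, a tubulin of the male germ line, at 1425 and 62.2 normalized counts, the latter close to the 55.2 of AD day 30 replicate 1. Whether the presence of testis RNA in these libraries bears on the copies was not tested.

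The copy with the highest count in WT day 3 replicate 1 was *Prosbeta5R1*, with 91.2 normalized counts there, 23.4 in AD day 10 replicate 1, and at most 2.41 in the other libraries. *Prosalpha6T*, an alpha subunit copy of the male germ line, had 88.6, 10.0, and at most 3.89. *Prosbeta4R2* had 82.7, 18.1, and at most 2.59, *Rpn12R* 82.1, 7.36, and at most 0.648, and *Prosalpha4T2* 81.4, 13.4, and at most 7.03. In each of these 5 copies the same library was the highest by several fold.

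The rest of the 13 copies were also highest in WT day 3 replicate 1, while AD day 10 replicate 1 came second for only some of them. *Rpt6R* had 73.0 normalized counts in WT day 3 replicate 1, 13.4 in AD day 10 replicate 1, and at most 10.0 elsewhere, *Prosbeta2R2* 42.4, 12.0, and at most 18.01, and *Rpt3R* 41.7, 12.0, and at most 16.9. *Prosbeta2R1* had 37.8, 4.01, and at most 11.5, *Prosalpha4T1* 29.3, 9.36, and at most 20.0, and *Prosbeta4R1* 25.4, 3.34, and at most 1.74. *Prosbeta5R2* had 23.5, 10.0, and at most 3.61, and *Prosalpha3T*, the lowest in the first library, 15.6, 6.02, and at most 8.94. WT day 3 replicate 1 was thus above all other libraries for 13 of the 15 copies. Even there the FPKM of these copies was between 1.5% and 12.3% of that of the constitutive counterpart, the highest share being that of *Prosalpha6T*.

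*Rpt4R* and *Rpn13R* were listed in all 24 libraries. *Rpt4R* ranged from 25.7 to 139.8 normalized counts in the other 22 libraries (median 75.0), with 84.1 and 73.6 in the 2 with the most testis transcripts, which lie inside that range. Its FPKM was 5.93% of that of *Rpt4* at the median. *Rpn13R* ranged from 2.06 to 50.1 normalized counts (median 21.7), and was 1.62% of *Rpn13* by FPKM. In WT flies *Rpt4R* read 84.1, 90.4, and 90.3 at day 3 and 55.7, 67.4, and 57.5 at day 30, without overlap (-0.55 ± 0.36, not called). In AD flies it read 44.7, 77.8, and 85.4 at day 3 and 76.3, 52.7, and 25.7 at day 30, with overlapping groups (-0.42 ± 0.36). Of the 5 copies that passed the filter, *Prosalpha4T1*, *Prosbeta2R2*, *Rpt3R*, *Rpn13R*, and *Rpt4R*, 0 were called by edgeR in any comparison, and DESeq2 called 0 too, while 10 copies were too low to be tested.

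**Figure D5:**
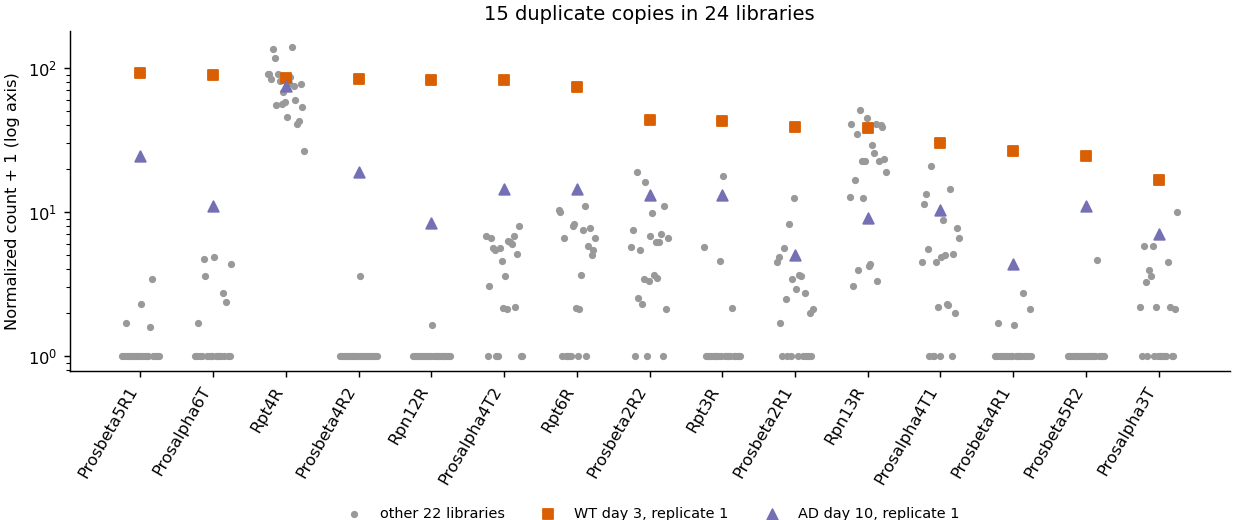
Normalized count plus 1 (log axis) of the 15 duplicate copies in the 24 libraries, ordered by their value in WT day 3 replicate 1. Squares are WT day 3 replicate 1, triangles AD day 10 replicate 1, and grey points the other 22 libraries. For 13 copies the square is the highest point, and *Rpt4R* and *Rpn13R* are present throughout.

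Partners of the proteasome were examined as a list of 23 genes of assembly, activation, ubiquitin supply, and delivery. Between AD and WT flies 0 of 23 were called by edgeR at any age, and none of the 4 ages had a list member with an unadjusted p below 0.05 (0 of 23). From day 3 to day 30, 3 were called higher in WT and 2 in AD flies, 0 lower, with medians of 0.21 in both, beside 4.52% and 10.2% of all tested genes called higher, so that the AD count is near the background. *cnc*, the factor that in flies activates stress response genes including those of the proteasome, rose by a log2 fold change of 0.67 ± 0.20 in WT (FDR = 0.0324) and 0.57 ± 0.20 in AD flies (FDR = 0.0422 by edgeR). *p47*, a cofactor of the segregase *TER94*, rose by 0.52 ± 0.13 in WT and 0.44 ± 0.13 in AD flies, and *Npl4*, another such cofactor, by 0.59 ± 0.17 in WT flies (edgeR FDR = 0.0305). At day 20 in AD flies 4 were called higher, namely the activator *REG* (0.61 ± 0.17), the regulator *PI31* (0.48 ± 0.12), the glycanase *Pngl* (0.44 ± 0.14), and *cnc* (0.72 ± 0.20), against 7.41% of all tested genes. In WT flies at that age 0 of 23 were called, against 2.35% of all tested genes called higher. By edgeR 5 of the list had an unadjusted p under 0.05, for which no share of all genes was counted. The 4 genes named for AD flies were at 0.53, 0.34, 0.39, and 0.51 in WT flies (edgeR FDR = 0.068, 0.0958, 0.091, and 0.123). Whether the genotypes differ in this change at day 20 was not tested.

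Markers of other cell types moved with age beside the subunits. All 4 muscle markers had lower values at day 30, with 3 called lower in WT and 4 in AD flies and medians of -1.62 and -1.58, and their summed normalized counts were 30804 to 78970 at day 3 against 19471 to 24468 at day 30 in WT and 26689 to 86501 against 18416 to 23693 in AD flies. Of all tested genes 6.63% in WT and 11.7% in AD flies were called lower. Of the 5 neuronal markers 1 was called lower in WT and 2 in AD flies, and the summed range was 43028 to 57706 against 43309 to 43830 in WT and 36426 to 58572 against 26773 to 35528 in AD flies, where the highest is the doubted replicate 3 and the others had 26773 and 27635. Of the 4 glial markers 2 were called lower in each genotype, of the 5 photoreceptor markers 1 (*chp*), of the 5 of the head fat body 0, and of the 2 of hemocytes 0. Of the 4 testis markers tested, *dj* was called lower in WT and *can* higher in AD flies. In WT flies *dj* had 399 normalized counts in day 3 replicate 1, one of the libraries with testis transcripts. The other WT libraries of days 3 and 30 had far fewer. In AD flies *can* was near the floor, with 0 in each library of day 3 and 3.01, 2.24, and 6.71 normalized counts at day 30. Neither call is therefore read as a change of a cell type with age. The part of these shifts in the subunit values was not tested.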

How the data were processed

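RNA was measured in 24 libraries of male fly heads, and the labels gave each group and replicate number but do not say how replicates were raised, so p-values measure the spread between these samples only. The authors filtered reads with SOAPnuke, aligned them (HISAT2 2.0.4 and Bowtie2 in the submitters' processing notes, release 6 genome), and deposited expected counts estimated by RSEM, not normalized, together with FPKM, which the authors scaled by gene length and library size, and the gene length. Genes of the authors' own numbering took 0.287% to 1.148% of counts and were used only to split the libraries into the 2 sets by a listed length. A gene not listed in a library was taken as 0.

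After rounding to whole numbers, expected counts entered a fit with edgeR 4.0.16 in R 4.3.3 (quasi-likelihood test, TMM, filterByExpr, 8 groups, no covariate), and FDR is the Benjamini-Hochberg value over 10479 genes. Tables and figures were made with Python. Intervals cover the error of the fit, and the libraries carry no molecular identifiers. The fits were also run on simulated data with the same small dispersion for every gene and no difference between the 2 sets. The spread in these libraries is larger, so that run checks the code and not the error rates here. Replicate numbers were taken to pair samples where the deviations of each same-numbered pair from its group means correlated at over 0.1. That held between AD and WT flies at day 10 (0.319 to 0.761) and day 20 (0.378 to 0.805), and against day 3 for WT flies at day 10 (0.282 to 0.439) and day 20 (0.149 to 0.431) and AD flies at day 10 (0.189 to 0.613). It did not hold between genotypes at day 3 (from 0.0882) or day 30 (from -0.113), nor against day 3 for AD flies at day 20 (from 0.0171) or for either genotype at day 30 (from -0.121 in AD and -0.088 in WT flies). The rule does not separate pairing by number from the 2 sets, since replicate 1 of days 3, 10, and 20 forms the first set. In WT flies at day 20, replicate 2 of day 3 correlated better with replicate 3 (0.1885) than with replicate 2 (0.1487). Replicate 3 of day 3 correlated better with replicate 2 (0.3635) than with replicate 3 (0.2583). Positions and exon overlaps came from the release 6 annotation, which held all 47 members.

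The members, lists, and tests were chosen with earlier results of these data known. Named subunits are those called with the 3 lowest FDR values per direction and particle in a comparison, or the 1 with the lowest p where none was called, the most and least abundant, and every copy. Other subunits named, such as *Prosbeta1*, *Prosbeta5*, *Rpn11*, *Rpn1*, and *Rpn8* in AD flies, were chosen after their values were seen. Alternatives were DESeq2 1.42.0, RLE, no filter, the compared groups alone, a replicate block, the set of libraries as covariate, the second set alone, limma 3.58.1 on log2(FPKM + 1), TMM counts per kilobase for the levels, and each library left out in turn. A further 3 were added after seeing the data. Sequences, and a planned search of promoter motifs, were not used here.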

Additional observations from a re-analysis of the deposited data

How the results depend on the processing

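No subunit was called between AD and WT flies, or in the test of genotype by age, under any alternative. At day 30 against day 3 in AD flies, where 7 members were called, the number was 18 with limma on log2(FPKM + 1), 2 with only the groups compared, 16 with the set of libraries as a covariate, and 12 within the second set. In WT flies, with 3 called, it was 5 with DESeq2, 7 with limma, and 6 with the set as a covariate. At day 20 in AD flies, with 3 called, it was 5 with DESeq2, 7 with limma, 0 with only the groups compared, and 7 with the set as a covariate. At day 20 in WT flies, with 1 called, it was 2 with DESeq2 (*Rpn7* added) and with no filter on low counts (the copy *Rpt6R* added), 3 with the set as a covariate (*Rpn7* and the copy *Rpt3R* added, both lower), and 0 with only the groups compared, within the second set, without the 3 doubted libraries, and without them with the set as a covariate. At day 10, with 0 called, it was 1 in AD flies with DESeq2 and with the set as a covariate (*Rpn7*), and 1 in WT flies with the latter (*Rpt3R*). Leaving out each library in turn gave 5 to 9 at day 30 and 1 to 4 at day 20 in AD flies, 2 to 7 and 0 to 4 in WT flies, and 0 to 1 at day 10 in AD flies (1 without AD day 3 replicate 3). The share of all tested genes called moved with the fit too, as given above for several fits at day 30. It is not given for the other fits listed here at day 30, nor for these fits at days 10 and 20. The counts without it are not a result about the subunits. The causes were not tested. No called subunit changed direction under any alternative. TMM-scaled counts per kilobase lowered the group medians of both particles, from 103.5 to 85.3 in the core particle of WT flies at day 30.

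With the replicate number as a block, 12 members were called at day 30 and 6 at day 20 in AD flies, and 6 and 2 in WT flies, against 14.7% and 10.8% of tested genes called higher in AD flies and 8.01% and 4.66% in WT flies. The counts at day 20 include *Rpn7*, which was called lower in AD (-0.32) and WT flies (-0.31). The shares cover only genes called higher. By the rule given with the processing, the numbers were taken to pair the samples at day 20 in WT flies but not in the other 3 comparisons. Even there, pairing by number and the 2 sets of libraries cannot be told apart. The block changed no other call between groups whose numbers meet that rule, and none between AD and WT flies. As a hint from the data alone, 8 of 12 WT libraries correlated best with the AD library of their own number and age.

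Of the 15 copies 10 were too low to be tested, and the reads of *Prosalpha1* were divided with its neighbour.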
